A study of Mus musculus with 12 samples.

Results

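The cathepsin protease genes Ctsa, Ctsb, Ctsc, Ctsd, Ctsf, Ctsh, Ctsl, Ctss and Ctsz were described in homeostatic mouse microglia from 4 brain regions. They were chosen by gene symbol, and all 9 were among the 23337 genes of the count table. The groups were microglia of cerebellum, striatum, hippocampus and cortex, with 3 libraries each. All came from wild-type male C57BL/6N mice at postnatal day 60, and tissue of several animals was pooled for each sample. Each library was made by bulk RNA-seq from 3000 live sorted cells in a TMEM119+ gate within CD45low CD11b+ cells. TMEM119 and CD11b were used to choose the cells, so their transcripts are no finding.

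Cathepsins are the main proteases of the lysosome, where they cut proteins delivered by phagocytosis, endocytosis and autophagy. They are made as inactive precursors, sorted to lysosomes largely by mannose 6-phosphate receptors, matured by cleavage in the acidic lumen, and held in check outside it by cystatins. Ctsd encodes an aspartic endopeptidase. Ctsa encodes a serine carboxypeptidase that also protects the lysosomal enzymes neuraminidase and beta-galactosidase. The other members encode papain-family cysteine proteases, and microglia are the main cathepsin S-expressing cells of the brain.

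The libraries held between 6479839 counts (striatum 2) and 14833340 counts (cortex 2). Striatum 2 stood apart. It had 10929 genes detected, against 12214 to 13614 in the other libraries, and its log2 CPM correlated with theirs at r = 0.748 to 0.771, against 0.858 to 0.936 among the others. The 7 microglial markers summed to between 24714 and 34165 CPM per library, and none was at 0. The 7 border-associated macrophage markers summed to between 256 and 858 CPM, most of it Mrc1. The 6 monocyte and neutrophil markers summed to at most 17.3 CPM, and Ly6c2 was at 0 in every library. Markers of oligodendrocytes summed to between 99.9 and 200.3 CPM, those of astrocytes to between 36.2 and 113 CPM, those of neurons to between 5.33 and 35.9 CPM, and those of endothelium and pericytes to between 0.323 and 42.6 CPM. Choroid plexus markers reached 677 CPM in striatum 2, of which Ttr made up 579.8 CPM.

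Promoter windows are shown for Ctsa, Ctsd and Ctsl, whose transcripts varied together across the 12 libraries. They are also shown for Ctsf and Ctss, which over the 12 libraries varied together and less closely with Ctsa, Ctsd and Ctsl. The windows are from RefSeq on GRCm38.p6, run from 250 bases before to 50 bases after an annotated start, and are printed 5′ to 3′ on the gene's strand. Capitals mark CACGTG, an E-box sequence that bHLH factors such as TFEB can bind within their longer lysosomal motif. Ctsz also varied with Ctsa, Ctsd and Ctsl, but its window, which holds no CACGTG, is not shown. The Ctsa window shown, the one of its 2 that holds matches, is chr2:164833523-164833822 (plus strand), Ctsd chr7:142387778-142388077 (minus), Ctsl chr13:64370471-64370770 (minus), Ctsf chr19:4854915-4855214 (plus) and Ctss chr3:95526536-95526835 (plus).
Ctsa: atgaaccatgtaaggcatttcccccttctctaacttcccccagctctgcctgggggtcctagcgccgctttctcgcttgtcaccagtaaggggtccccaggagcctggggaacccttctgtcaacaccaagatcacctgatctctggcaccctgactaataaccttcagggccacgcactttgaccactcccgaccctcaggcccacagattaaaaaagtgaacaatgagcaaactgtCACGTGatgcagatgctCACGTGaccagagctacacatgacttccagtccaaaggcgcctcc
Ctsd: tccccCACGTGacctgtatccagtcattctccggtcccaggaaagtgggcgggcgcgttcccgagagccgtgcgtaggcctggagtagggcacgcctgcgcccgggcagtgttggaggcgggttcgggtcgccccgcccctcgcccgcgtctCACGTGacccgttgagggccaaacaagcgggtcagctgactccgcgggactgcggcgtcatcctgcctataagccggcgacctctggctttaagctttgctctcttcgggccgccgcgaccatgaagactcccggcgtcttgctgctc
Ctsl: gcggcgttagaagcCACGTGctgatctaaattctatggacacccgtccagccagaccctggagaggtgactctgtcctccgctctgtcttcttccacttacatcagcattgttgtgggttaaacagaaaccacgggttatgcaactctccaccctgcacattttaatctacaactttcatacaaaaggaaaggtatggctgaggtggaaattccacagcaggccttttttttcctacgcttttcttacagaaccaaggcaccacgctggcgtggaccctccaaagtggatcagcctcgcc
Ctsf: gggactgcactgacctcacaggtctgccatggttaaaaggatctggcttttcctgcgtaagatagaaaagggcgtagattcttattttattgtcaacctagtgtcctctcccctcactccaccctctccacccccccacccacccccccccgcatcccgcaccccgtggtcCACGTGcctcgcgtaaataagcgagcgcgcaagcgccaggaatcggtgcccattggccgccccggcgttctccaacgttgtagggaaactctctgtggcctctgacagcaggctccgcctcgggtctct
Ctss: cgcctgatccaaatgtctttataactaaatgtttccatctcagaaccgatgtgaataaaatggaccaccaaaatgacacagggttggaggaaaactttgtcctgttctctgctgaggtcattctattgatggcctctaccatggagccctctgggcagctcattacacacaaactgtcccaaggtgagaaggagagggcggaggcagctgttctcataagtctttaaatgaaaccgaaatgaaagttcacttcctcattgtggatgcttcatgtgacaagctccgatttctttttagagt

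Windows were held for 7 of the 9 genes, Ctsa with 2 of them. CACGTG, which reads the same on both strands, was in a window of 4 genes: Ctsa, Ctsd, Ctsf and Ctsl. It was in 4 of their 8 windows and in 7.15% of all 32851 windows of this length. The longer TCACGTGA, which contains it and is also its own reverse complement, was in Ctsa and Ctsd and in 0.974% of all windows. GTCACGTG, searched on both strands and overlapping both, was also in Ctsa and Ctsd and in 2.25% of all windows. These letters were not found in the windows of Ctsc, Ctss and Ctsz, nor in the other Ctsa window, chr2:164832622-164832921, at the annotated start of the gene. The Ctsl window and the Ctsa window shown both lie wholly inside their annotated genes, which begin at 64370890 (Ctsl, minus strand) and 164832873 (Ctsa). A match describes the sequence only.

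Cathepsin transcripts were abundant in every region. The 9 genes took between 1.55% (cortex 2) and 2.78% (hippocampus 2) of a library's counts, of which Ctsb and Ctsd together gave 0.745% to 1.59%. The share averaged 2.04 ± 0.397% in cerebellum, 2.19 ± 0.197% in striatum, 2.30 ± 0.409% in hippocampus and 2.06 ± 0.558% in cortex (SD, n = 3 each). The regions' ranges overlapped.

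Levels are given as CPM, a gene's counts scaled to a common library size, after TMM scaling for composition, libraries 1, 2 and 3 in order. Ctsd, on chromosome 7 at 142375911-142388038 (minus strand, GRCm38), had 5535, 3775 and 7511 CPM in cerebellum, 5285, 7693 and 5981 CPM in striatum, 5699.7, 8166 and 5937 CPM in hippocampus, and 4795, 3807 and 8122 CPM in cortex. The 3 cortex libraries alone spanned nearly the whole range of the 12, so the regions overlapped throughout. Ctsb, an endopeptidase that also removes dipeptides from the carboxyl end, lies on chromosome 14 at 63122462-63145923 (plus). It had 5445, 3538 and 6536 CPM in cerebellum, 5067, 6965 and 5681 CPM in striatum, 5080.1, 7749.9 and 5635 CPM in hippocampus, and 4625, 3401 and 7593 CPM in cortex. The high and low libraries were those of Ctsd: hippocampus 2 and cortex 3 at the top, cortex 2 and cerebellum 2 at the bottom.

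Ctss, which stays active at neutral pH and processes the MHC class II invariant chain, lies on chromosome 3 at 95526786-95556403 (plus). It had 3202, 2177 and 2108 CPM in cerebellum, 2675, 2233 and 2287 CPM in striatum, 2647, 2721 and 2192 CPM in hippocampus, and 2456, 2098 and 2327 CPM in cortex. Cerebellum 1 was highest, cortex 2 and cerebellum 3 were lowest, and the regions overlapped. Ctsa, on chromosome 2 at 164832873-164841032 (plus), had 2137, 1616 and 2183 CPM in cerebellum, 2044, 2619 and 2172 CPM in striatum, 1934, 2605 and 2031 CPM in hippocampus, and 1916, 1417 and 2519.8 CPM in cortex. Ctsl, an endopeptidase on chromosome 13 at 64359337-64370890 (minus), had 1903, 1309.6 and 1972 CPM in cerebellum, 1520.2, 2154 and 1816 CPM in striatum, 1474, 2284 and 1586 CPM in hippocampus, and 1522, 1167 and 1775 CPM in cortex. Both were again lowest in cortex 2 and cerebellum 2, and no region was separate.

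Ctsz, a carboxypeptidase on chromosome 2 at 174427493-174439039 (minus), averaged 1677 ± 342 CPM in cerebellum, 1700.3 ± 85.5 CPM in striatum, 1832 ± 323 CPM in hippocampus and 1756 ± 406 CPM in cortex (SD, n = 3 each, as below). Ctsf, on chromosome 19 at 4855130-4860918 (plus), averaged 851 ± 162, 816 ± 63.5, 813 ± 109 and 742 ± 50.2 CPM in the same order of regions. Ctsc, the dipeptidyl peptidase that activates granule serine proteases, lies on chromosome 7 at 88278085-88310888 (plus) and averaged 688 ± 53.2, 677 ± 98.4, 718 ± 54.9 and 707 ± 217 CPM in that order. The libraries of any 2 regions overlapped for these 3 genes. Ctsh, an aminopeptidase on chromosome 9 at 90054152-90076089 (plus), had 565, 443 and 287 CPM in cerebellum, 499, 449 and 412 CPM in striatum, 376, 462 and 369.6 CPM in hippocampus, and 456, 354 and 334 CPM in cortex. Its highest and lowest libraries were both from cerebellum.

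**Figure D1:**
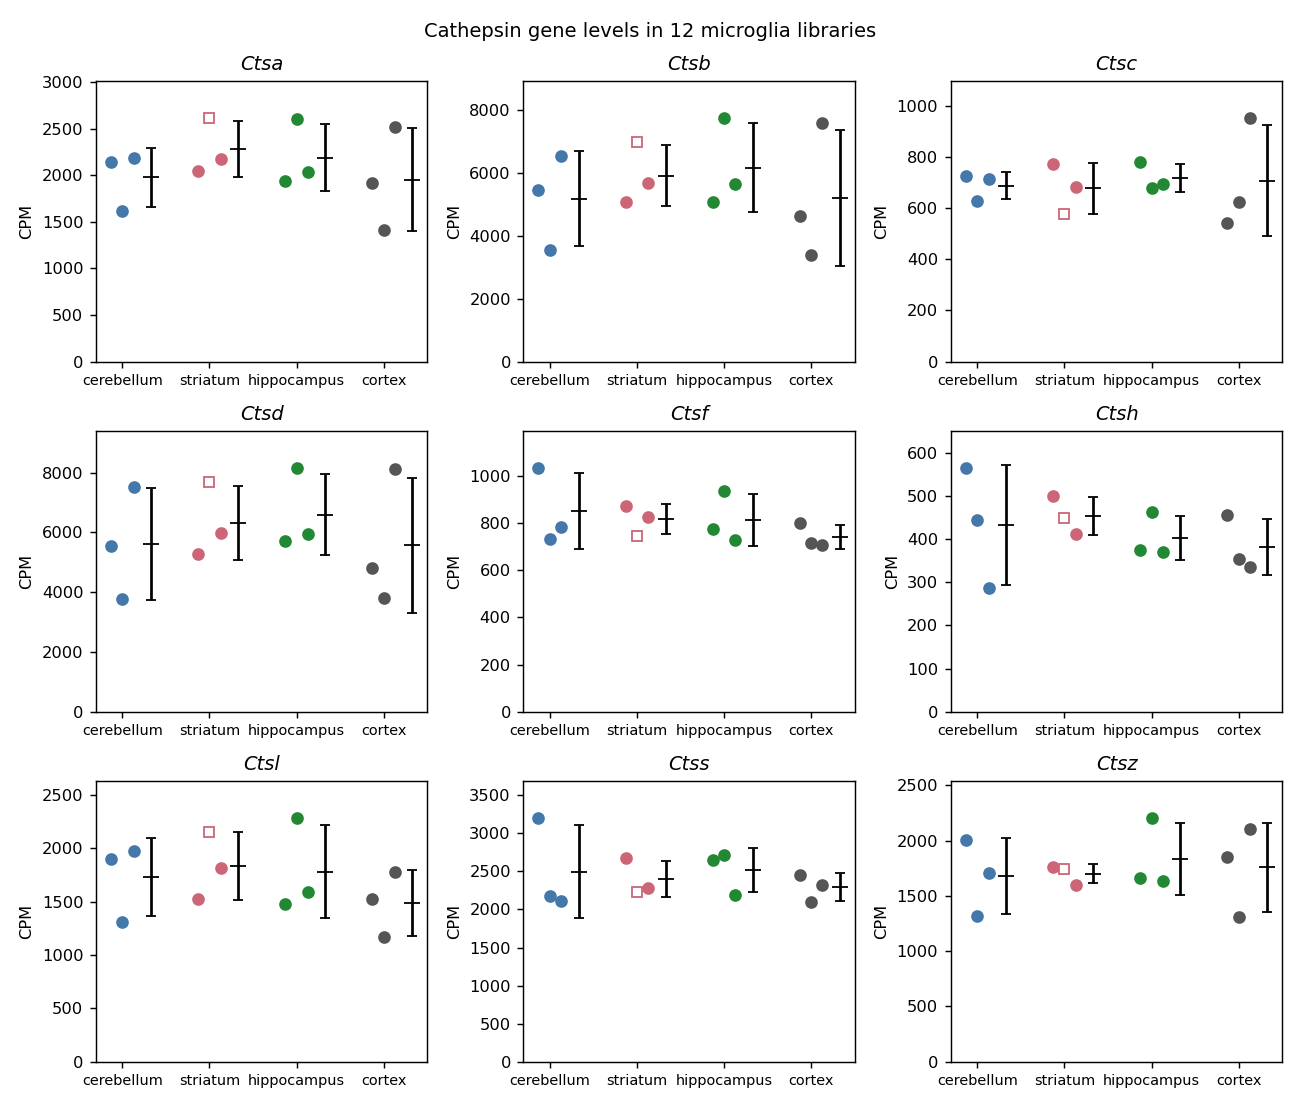
CPM (TMM scaled) of the 9 cathepsin genes in each library, in the order cerebellum, striatum, hippocampus and cortex. Black bars give the mean ± SD of 3 libraries and the open square is striatum 2. The regions overlap for every gene.

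Per kilobase of the longest transcript, Ctsd was highest at 2833 CPM/kb over the 12 libraries, followed by Ctss at 1791, Ctsz at 1209 and Ctsb at 1183 CPM/kb, and Ctsh was lowest at 152 CPM/kb. With the mean transcript length or the union of exons Ctsd stayed first and Ctsh last, but the genes between changed places, so no order is read among them. The library chemistry does not keep strand. On opposite strands Ctsa overlaps Neurl2 (14.2 CPM) and Pltp (4.27 CPM), Ctsb overlaps Fdft1 (19.5 CPM) and Ctsl overlaps the antisense gene Gm47123. Reads in the shared stretches cannot be told apart. Ctsd also shares 808 bases with the annotated gene Gm49369 on its own strand, and Ctsl 395 exon bases with the pseudogene Gm49230, so the levels of both are uncertain to the extent that counting split such reads.

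No cathepsin differed between regions past the threshold. In edgeR's quasi-likelihood test across the 4 regions, 0 of 9 passed an adjusted p of 0.05, with 0% of the 12217 genes tested called, and 0 of 9 had an unadjusted p under 0.05, against 1.82% of all genes. Unadjusted p ran from 0.575 (Ctsl) to 0.974 (Ctsc), and every Benjamini-Hochberg adjusted p was 1.00. The exact permutation test of the same 4 groups gave p between 0.634 (Ctsl) and 0.976 (Ctsc). DESeq2 and limma-voom also called 0 members. The labels do not say whether replicates came from separate animals, so these p-values measure the spread between libraries.

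The 6 pairs of regions gave 54 differences between region means. All 54 were between -0.25 and 0.30 on the log2 scale, or 0.840-fold and 1.23-fold. Every 95% interval held 0, and their outermost bounds were -0.87 and 0.88 (0.546-fold and 1.84-fold). The outermost bounds were those of Ctsb and Ctsd, and the narrowest were those of Ctsf, between -0.35 and 0.55, and Ctss, between -0.44 and 0.50. With 3 libraries per region, differences inside a gene's own interval are not excluded. In the pairs 0 of 9 members also had an unadjusted p under 0.05, against 2.4% of all genes for cerebellum against striatum, 1.28% for cerebellum against hippocampus, 1.55% for cerebellum against cortex, 4.34% for striatum against hippocampus, 5.59% for striatum against cortex and 1.01% for hippocampus against cortex. Standard errors ran from 0.16 (Ctsf) to 0.29 (Ctsd), and the smallest unadjusted p was 0.207.

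The genes with the lowest unadjusted p in each pair were the following. Between cerebellum and striatum, Ctsa differed by -0.20 (SE 0.21) and Ctsb by -0.19 (SE 0.29) on the log2 scale. Between cerebellum and hippocampus, Ctsb differed by -0.25 (SE 0.29) and Ctsd by -0.24 (SE 0.29), and between cerebellum and cortex Ctsf differed by 0.20 (SE 0.16) and Ctsl by 0.22 (SE 0.22). Each of these 6 had an edgeR adjusted p of 1.00. Between striatum and hippocampus, Ctsh differed by 0.17 (SE 0.23, edgeR adjusted p = 0.964) and Ctsz by -0.11 (SE 0.20, edgeR adjusted p = 0.969). The largest difference of the 54 was that of Ctsl between striatum and cortex, at 0.30 (SE 0.22, edgeR adjusted p = 0.826), and Ctsh there differed by 0.25 (SE 0.23, edgeR adjusted p = 0.840). Between hippocampus and cortex, Ctsl differed by 0.26 (SE 0.22) and Ctsb by 0.24 (SE 0.29), both with an edgeR adjusted p of 1.00. All 12 were under 1.5 times their standard error.

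**Figure D2:**
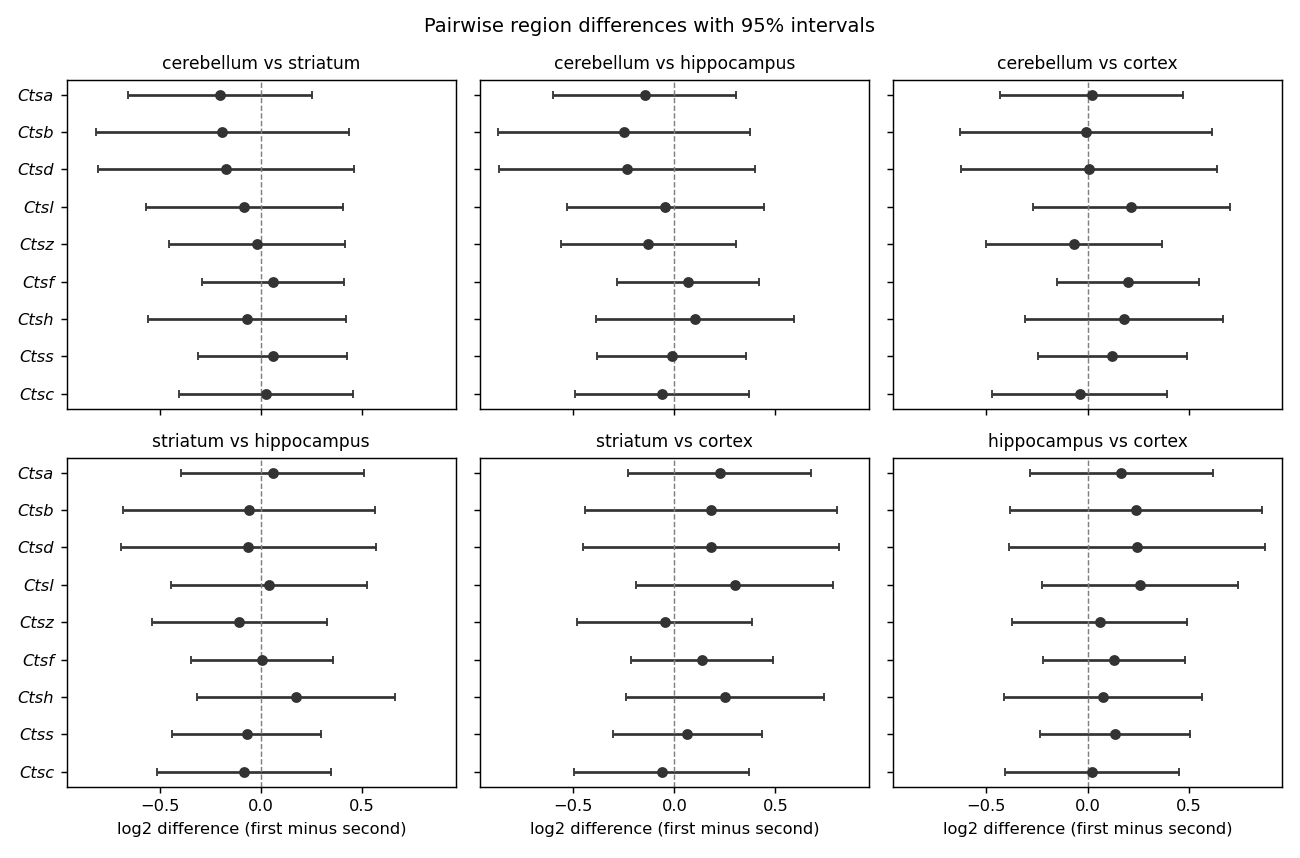
Log2 difference (first region minus second) and its 95% interval for each cathepsin gene in the 6 pairs of regions. All 54 intervals cross 0.

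No member had libraries that failed to overlap between 2 regions. The counts were 0 higher and 0 lower in each pair. Among all genes, the shares were 3.95% higher and 2.4% lower in cerebellum against striatum, 4.08% and 3.55% in cerebellum against hippocampus, 3.82% and 2.93% in cerebellum against cortex, 4.9% and 6.59% in striatum against hippocampus, 4.61% and 5.96% in striatum against cortex, and 3.63% and 3.05% in hippocampus against cortex. At 3 against 3 libraries, a two-sided exact permutation test of a single gene cannot go below a p of 0.1.

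The estimates for hippocampus lay above those for cortex for 9 of 9 cathepsins (8 of 9 without composition scaling), with a median of 0.14, while 47.1% of all genes lay above and their median was -0.02. None of these differences passed the test. Without cortex 2, 6 of 9 lay above, with a median of 0.02, and without hippocampus 2, 7 of 9 with a median of 0.04, whereas the median was 0.30 without cortex 3 (8 of 9) and 0.22 without hippocampus 3 (9 of 9). For striatum against cortex 7 of 9 lay above (6 of 9 without composition scaling), with a median of 0.18 against -0.06 over all genes. Without cortex 2 the count was 5 of 9 with a median of 0.00. The median was 0.11 without striatum 2 (8 of 9) or cortex 1 (7 of 9), and 0.21 without cortex 3 (9 of 9) or striatum 3 (7 of 9). The microglial markers summed to 26414 to 29798 CPM in hippocampus, 26908 to 31967 CPM in striatum and 24714 to 25884 CPM in cortex, and their part in these directions was not tested. For cerebellum, 3 of 9 lay above striatum, where 55.7% of all genes did, 2 of 9 above hippocampus (51.3% of all genes), and 6 of 9 above cortex (50.9% of all genes; 5 of 9 with RLE scaling and 4 of 9 without composition scaling). The medians were -0.07, -0.06 and 0.02. Leaving out 1 library at a time moved these counts to 0 to 7, 0 to 6 and 3 to 9 of 9, and the medians to -0.16 to 0.08, -0.21 to 0.03 and -0.13 to 0.23, so no direction is read from them. These pairs share libraries and are not independent of each other. Nor are the 9 genes: Ctsa, Ctsb, Ctsd, Ctsl and Ctsz correlated with each other at r = 0.748 to 0.990 over the 12 libraries. Counts out of 9 are therefore not counts of independent observations.

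The spread between region means was no wider than the spread between libraries gives by itself. For Ctsb the SD of log2 CPM between the 4 region means was 0.15, against 0.24 for means of 3 libraries at its SD within regions of 0.42, and for Ctsd the same values were 0.15, 0.24 and 0.42. For 9 of 9 cathepsins the SD between region means was below that value. The highest region mean was 1.06 to 1.23 times the lowest, and the highest single library 1.46 (Ctsf) to 2.28 (Ctsb) times the lowest. Cortex 2 was the lowest library for 5 genes and hippocampus 2 the highest for 4.

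**Figure D3:**
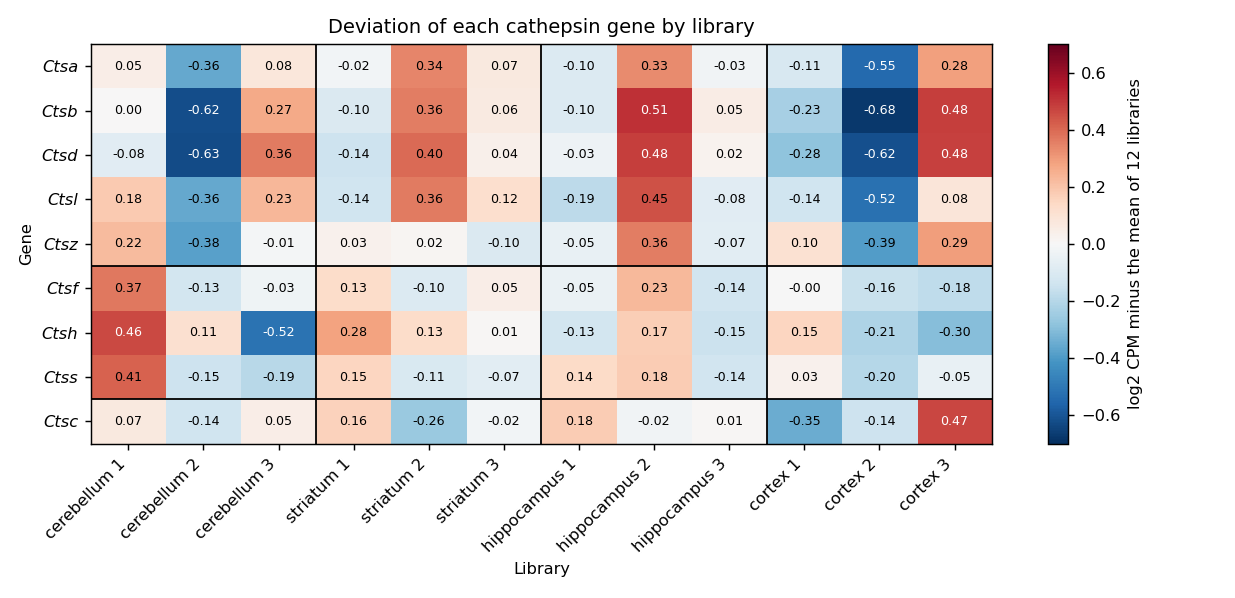
Log2 CPM of the 9 cathepsin genes (rows) in each library (columns), minus the gene's mean over the 12 libraries. Ctsa, Ctsb, Ctsd and Ctsl are all low in cerebellum 2 and cortex 2 and all high in striatum 2 and hippocampus 2, while Ctsf, Ctsh and Ctss are highest in cerebellum 1.

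Some cathepsins varied together from library to library. Among the 36 pairs of genes, 33 correlated positively over the 12 libraries, with a median r of 0.39 and a range of -0.28 to 0.99, and 13 passed an adjusted permutation p of 0.05 over the 36. All 10 pairs among Ctsa, Ctsb, Ctsd, Ctsl and Ctsz were among the 13 (r = 0.748 to 0.990), and so were all 3 pairs among Ctsf, Ctsh and Ctss (r = 0.690 to 0.859). None of the 15 pairs between these groups passed (r = -0.217 to 0.616), nor did any of the 8 with Ctsc (r = -0.284 to 0.397). By Spearman's rho 1 of the 15 passed, the pair of Ctss and Ctsz, and 6 of the 10. The grouping was read from these correlations and is a description. Within regions, 7 of the 36 pairs passed, namely the 6 among Ctsa, Ctsb, Ctsd and Ctsl and the pair of Ctsf and Ctss.

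The groups were less separate within replicate numbers. As deviations from the mean of each number, 35 of the 36 pairs correlated positively and 5 passed (exact permutation within numbers). The pairs among Ctsa, Ctsb, Ctsd, Ctsl and Ctsz had r = 0.825 to 0.990, of which 3 passed, and those among Ctsf, Ctsh and Ctss r = 0.589 to 0.837, of which 0 passed. The pairs between the groups had r = 0.114 to 0.724, and 2 of these passed, Ctsb with Ctss and Ctsf with Ctsl. What the numbers mark is not stated in the labels, and their part in the grouping cannot be told apart from the libraries' own differences.

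Ctsb and Ctsd were the closest pair, with r = 0.990 and rho = 0.986 (permutation test, adjusted p = 9e-05, from an unadjusted p at the smallest that the permutations can give). Without cortex 2 and cerebellum 2, the libraries farthest from the median, r was 0.982, and within regions it was 0.989. The Ctsb to Ctsd ratio was 0.870 to 0.984 in the 12 libraries, with a coefficient of variation of 3.70%. One is a cysteine and the other an aspartic protease, on different chromosomes. Ctsb correlated with Ctsa at r = 0.970 and with Ctsl at r = 0.905. The pairs with Ctsz fell to r = 0.399 to 0.544 without the farthest libraries, so they rest on those libraries. For Ctsl with Ctsz these were cortex 2 and hippocampus 2.

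**Figure D4:**
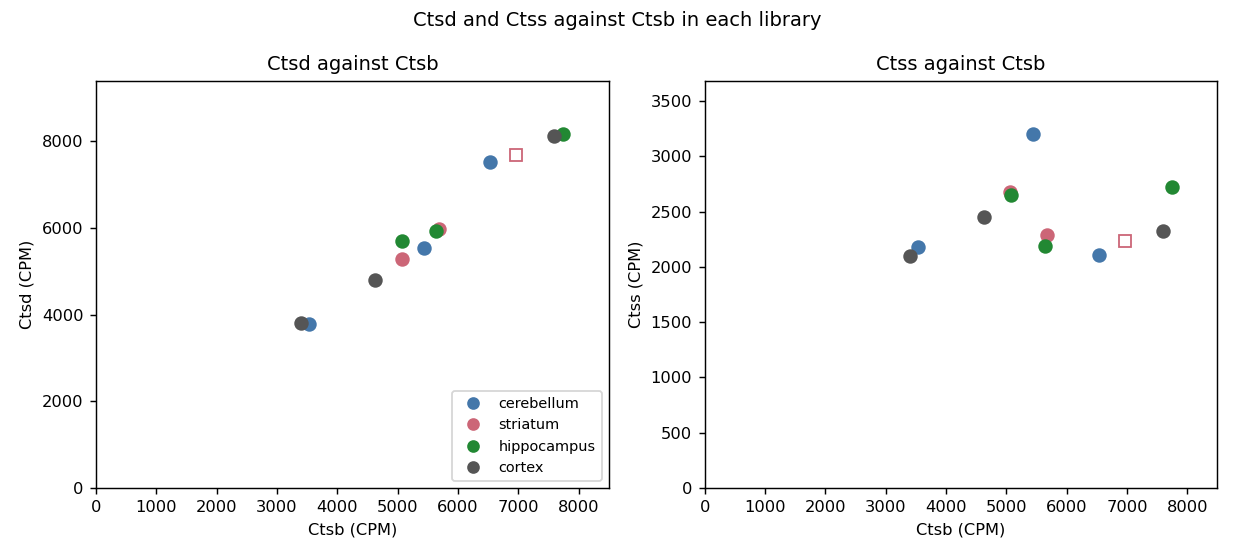
Ctsd (left) and Ctss (right) against Ctsb, in CPM, in each library, coloured by region; the open square is striatum 2. Ctsb and Ctsd lie along 1 line (r = 0.990), whereas Ctsb and Ctss spread widely (r = 0.199).

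Ctsb and Ctss correlated at r = 0.199 over the 12 libraries, and at r = 0.621 within replicate numbers (exact permutation, adjusted p = 0.0458). Their ratio was 1.70, 1.63 and 3.10 in cerebellum, 1.89, 3.12 and 2.48 in striatum, 1.92, 2.85 and 2.57 in hippocampus, and 1.88, 1.62 and 3.26 in cortex. Library 1 was under 2 in every region and library 3 was at 2.48 or above in every region, while library 2 was on both sides. Every region thus held low and high libraries, and the highest ratio was 2.01 times the lowest. Ctsb to Ctsh ranged further, between 7.98 (cerebellum 2) and 22.7 (cerebellum 3). Ctsf and Ctss correlated at r = 0.859, and at r = 0.601 without cerebellum 1 and hippocampus 2. The pair of Ctsh with Ctsf fell to r = 0.464 without the same libraries. That of Ctsh with Ctss fell to r = 0.456 without cerebellum 3 and cerebellum 1.

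**Figure D5:**
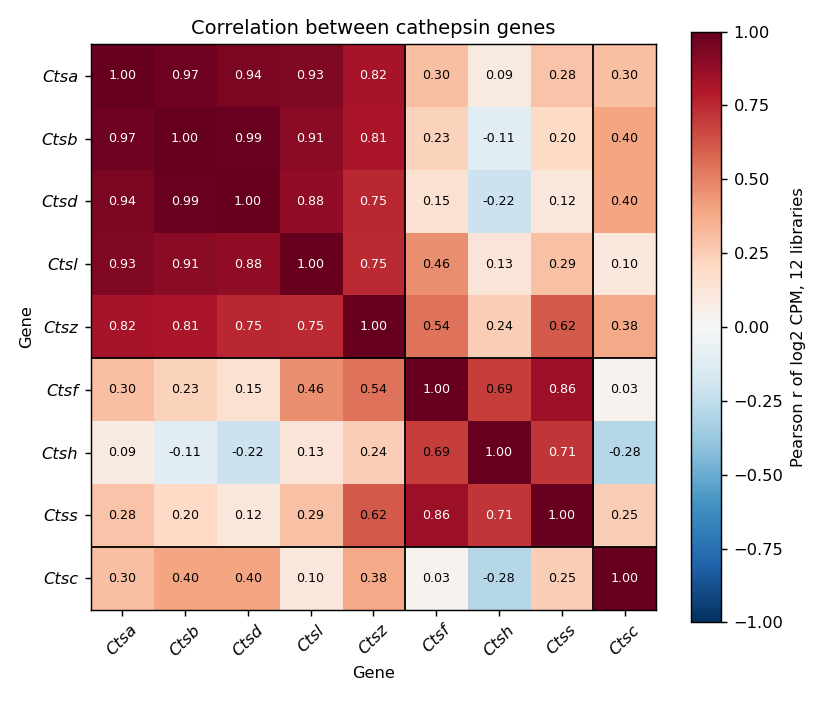
Pearson's r of log2 CPM over the 12 libraries for each pair of cathepsin genes. The high values stand among Ctsa, Ctsb, Ctsd, Ctsl and Ctsz and, in a separate block, among Ctsf, Ctsh and Ctss.

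The mean profile of the 9 genes moved with other measures of the libraries, given as descriptions. Over the 12 libraries it correlated with the total count at r = -0.60 (rho = -0.59), with the summed lysosomal membrane genes at r = 0.86 (rho = 0.87), with the cystatins at r = 0.79 (rho = 0.75) and with the microglial markers at r = 0.61 (rho = 0.64). With border-associated macrophage markers r was -0.16, and with immediate early genes, which mark dissociation, it was 0.18. The Ctsb to Ctss ratio correlated with the summed monocyte and neutrophil markers at r = -0.80, with those of astrocytes at r = 0.72, with those of oligodendrocytes at r = -0.69, with those of endothelium and pericytes at r = -0.58 (rho = -0.86), with those of border-associated macrophages at r = 0.60, with those of choroid plexus at r = 0.59 and with the lysosomal transcription factors at r = 0.80. Each was 1 of 19 measures compared. After adjustment over the 19, r did not pass 0.05 for total count and microglial markers with the profile. With the ratio it did not pass for oligodendrocyte, border-associated macrophage and choroid plexus markers, and rho did not for astrocytes. The monocyte and neutrophil sum was low, with 3 to 5 of its 6 markers at 0 in each library. Most of the lysosomal transcription factor sum was Tfe3, at 183 CPM (cortex 1) to 289 CPM (cortex 3). Tfeb was a smaller part, at 38.1 CPM (cortex 3) to 95.9 CPM (striatum 2), and r is that of the sum. The part of depth and of other cells in these patterns was not tested. In bulk samples, fewer cells of a type and less RNA per cell cannot be told apart.

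The genes most like the mean profile outside the family were Hexa (r = 0.966), Ndfip1 (0.927), Ppt1 (0.926), Itm2b (0.923) and Sat1 (0.919), by Pearson's r of log2 CPM over 12 libraries. Hexa encodes a subunit of the lysosomal enzyme hexosaminidase and Ppt1 a lysosomal thioesterase. Hexa averaged 1209 CPM in cerebellum, 1202 in striatum, 1320.4 in hippocampus and 1132 in cortex.

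Other genes of the cathepsin pathway were also uncalled. Of 14 further cathepsin genes in the table, 3 were tested, and 0 passed in any comparison. Ctso, a cysteine cathepsin, was the most abundant of them at 187 CPM on average. Another 7, including Ctsg of neutrophils, were at 0 in all libraries, where the limit that a count of 0 allows is at most 0.485 CPM per library. A limit of this kind covers counting error only.

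Of the inhibitors 6 were tested and 0 passed in edgeR, also at an unadjusted p under 0.05. Cst3, the secreted inhibitor cystatin C, averaged 2938 ± 654 CPM in cerebellum, 2850 ± 317 CPM in striatum, 2756 ± 446 CPM in hippocampus and 2584 ± 385 CPM in cortex (SD, n = 3 each). Cstb, the cytosolic inhibitor stefin B, averaged 61.7, 60.5, 82.4 and 81.4 CPM in the same order of regions, and Serpinb6a 16.4, 27.8, 26.5 and 23.4 CPM. Among the other lysosomal peptidases 0 of 5 passed. Lgmn, the asparaginyl endopeptidase that matures several cathepsins, averaged 3791 ± 417, 4131 ± 616, 3683 ± 190 and 3329 ± 350 CPM in that order. Tpp1, a tripeptidyl peptidase, averaged 936, 1140.5, 966 and 819 CPM, and Prcp, a carboxypeptidase, 79.8, 104, 78.1 and 80.9 CPM. For striatum against cortex 2 of the 5, Lgmn and Tpp1, had an unadjusted p under 0.05 (0.0482 and 0.0321, edgeR adjusted p = 0.798 for both), against 5.59% of all genes. Lgmn, Tpp1 and Prcp were all highest in striatum 2.

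Among the partners and activators 0 of 6 passed. Neu1, the neuraminidase that cathepsin A protects, had an unadjusted p of 0.0393 across the 4 regions (edgeR adjusted p = 1.00), with 122, 112 and 126 CPM in cerebellum, 142, 274 and 142 CPM in striatum, 93.6, 129 and 111 CPM in hippocampus, and 112, 125 and 125 CPM in cortex. The highest of these was striatum 2, the library that stood apart. Glb1, the beta-galactosidase of the same complex, averaged 105, 140, 140 and 102 CPM in cerebellum, striatum, hippocampus and cortex, and Ifi30, a lysosomal thiol reductase, 99.1, 89.4, 103 and 120 CPM.

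Of the genes for sorting to lysosomes 0 of 11 passed. Sort1, a receptor that carries cargo to lysosomes, had an unadjusted p of 0.0332 (edgeR adjusted p = 1.00) and averaged 257 ± 55.7 CPM in cerebellum, 355 ± 127 CPM in striatum, 199.9 ± 44.0 CPM in hippocampus and 187 ± 61.8 CPM in cortex, with 499.5 CPM in striatum 2. Ap1b1 and Ap1g1, subunits of a clathrin adaptor, averaged between 296 and 386 CPM and between 69.9 and 98.2 CPM over the regions. The lysosomal transcription factors passed in 0 of 4 cases. Tfeb averaged 58.0 CPM in cerebellum, 62.0 in striatum, 46.0 in hippocampus and 44.8 in cortex. Tfec averaged 9.65, 17.7, 10.97 and 10.1 CPM in that order, and Mitf 20.1, 15.6, 10.95 and 11.4 CPM. The highest library was striatum 2 for Tfeb (95.9 CPM) and cerebellum 3 for Mitf (49.1 CPM).

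Of the lysosomal membrane genes 0 of 9 passed. Lamp1 averaged 2173, 2454, 2386 and 2048 CPM in the same order of regions, Lamp2 923, 1085, 1018 and 792 CPM, and Laptm5 3848, 4009, 3529 and 3314 CPM. Of the MHC class II genes 0 of 4 passed. Cd74, the invariant chain that Ctss cuts, had an unadjusted p of 0.00106 (edgeR adjusted p = 1.00). It had 39.8, 39.8 and 42.3 CPM in cerebellum, 54.9, 18.4 and 45.6 CPM in striatum, 126, 62.0 and 95.1 CPM in hippocampus, and 104, 127 and 136 CPM in cortex. The libraries of cerebellum and striatum lay below those of hippocampus and cortex, whereas the Ctss libraries of these regions overlapped. H2-DMa averaged 69.4, 63.7, 69.0 and 88.6 CPM, and H2-Ab1 9.03, 10.4, 15.2 and 10.6 CPM, in cerebellum, striatum, hippocampus and cortex.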

How the data were processed

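Gene counts of the 12 libraries were used as deposited by the authors, as raw counts per gene. Per the labels' protocols, cDNA was made by Smart-Seq v4 from poly(A) RNA and libraries with Nextera XT, a chemistry that does not keep strand. The submitters' processing notes name Trim Galore 0.4.3, STAR 2.5.3a, Picard, HTSeq and mm10, with no roles given. The table carries 23337 genes, and 12217 passed filterByExpr (minimum count 10, minimum total count 15, by region).

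Counts were TMM scaled and fitted with edgeR 4.0.16 (robust quasi-likelihood, one mean per region, all 12 libraries) with Benjamini-Hochberg adjustment over all genes tested and a threshold of 0.05. Standard errors were taken from the log2 difference and its F. Log2 CPM used a prior count of 2. Correlations of pairs of genes used 100000 permutations. DESeq2 1.42.0 and limma 3.58.1 were alternatives, and the fit was tested on simulated data. The replicate numbers met the pairing criterion (every same-numbered pair over r = 0.1 in deviations from region means) for cerebellum and cortex only, with r = 0.101 to 0.287 in 3 pairs, a check on the data and not from the labels. No libraries were duplicates: same-region pairs differed by a chi-square of 33.8 to 97.5 per degree of freedom. Named genes were the members, the 2 lowest p-values among them in each pair of regions, up to 3 genes with the lowest p-values of each list at 10 CPM or more, and the 5 closest to the mean profile. The members and lists were chosen with earlier results of these data known. Promoters are RefSeq's and gene positions GENCODE's, on GRCm38, the build mm10 names.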

Additional observations from a re-analysis of the deposited data

How the results depend on the processing

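Under RLE scaling, no composition scaling, no filter on low counts, limma-voom, DESeq2, a fit of each pair alone and each library left out, 0 cathepsins were called in any comparison. DESeq2 called more of all genes: 5 across the 4 regions, 3 for cerebellum against striatum, 2 for cerebellum against hippocampus, 6 for cerebellum against cortex, 11 for striatum against cortex and 3 for hippocampus against cortex, against 0 in edgeR each time; the cause was not tested. Of the named log2 differences, 228 recomputed values kept direction and call, and 2 turned: Ctsb in cerebellum against striatum was 0.024 without cerebellum 2 (range -0.39 to 0.024 over the libraries left out), and Ctsz in striatum against hippocampus was 0.047 without hippocampus 2 (range -0.18 to 0.047). The gene pairs that passed were 13 over the 12 libraries, 10 by Spearman's rho, 13 without striatum 2, 7 as deviations from region means and 5 as deviations from the means of the replicate numbers; the last 4 settings, and the blocked fit of cerebellum and cortex alone, were chosen after seeing the data. Where the replicate numbers did not meet the pairing criterion (5 of the 6 pairs of regions), same-numbered libraries deviated together at r = -0.12 to 0.142, and over all 4 regions 9 of 12 libraries correlated best with their own number, a hint from the data only. With the replicate block, over all 12 libraries or in cerebellum and cortex alone, 0 genes and 0 cathepsins were called. The block changed no call. The fit of cerebellum and cortex alone with the block differed from the main fit in its libraries as well as in the block. The part of each in its narrower errors was not tested. In that blocked fit the members' standard errors ran from 0.11 (Ctsl) to 0.16 (Ctsc), against 0.16 (Ctsf) to 0.29 (Ctsd) in the main fit. Ctsl differed by 0.21 (edgeR adjusted p = 0.721). An unadjusted p under 0.05 was found for 0 cathepsins and 843 of 11534 genes, against 189 of 12217 in the main fit. The 3 libraries per region limit the precision.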
